A study of Homo sapiens with 18 samples.

Results

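Of the 142645 regions enriched for xChIP H1.2 on chromosomes 1 to 22 and X, 5803 were at least 20 kb long (20000 bp or more from start to end). These 5803 long xChIP H1.2 domains were selected on their measured length alone, so their lengths are a description. They were 4.07% of the regions of their list, held 36.1% of its bases (270.2 Mb) and occupied 9.53% of the known sequence. The data came from undifferentiated HL-60/S4, an established human myeloid leukemia cell line, grown without treatment. In xChIP, sonication of formaldehyde-fixed chromatin came first and immunoprecipitation with the antibody (against H1.2 or H1.5) second; in xxChIP, whole fixed and permeabilized cells took up the antibody, were fixed a second time and only then sonicated. Triplicate samples were made for each antibody under each protocol (4 groups), and 6 Input samples were not analysed here. The deposited lists give merged positions for the 3 samples of a group, so depth is unknown, no spread between replicates could be computed, and every value below describes the merged lists.

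Linker histone H1 binds the nucleosome where DNA enters and leaves it and helps to fold the nucleosome chain. Somatic human cells hold several H1 isotypes, H1.2 and H1.5 among them, which exchange on and off chromatin. GC-rich parts of human chromosomes are generally richer in genes than AT-rich parts, and the promoters of widely expressed genes are commonly rich in the dinucleotide CG, here called CpG.

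The 150 bases upstream of a transcription start site (TSS) are shown for 1 gene in each of the 3 longest domains that hold one, because domains and promoters differed in base composition. The promoter of CALML6 belongs to a TSS 1298 bp outside a domain whose gene is directed away from it, a position that recurs at the domain edges. Then follow 2 domain centres, those of the longest domain and of the longest domain without a gene. All are read 5′ to 3′ from GRCh37, the sequence of hg19, on the strand of the gene (plus strand for the centres), and capitals mark each CG.
GTF2IRD1 (chr7:73867970-73868119, plus strand): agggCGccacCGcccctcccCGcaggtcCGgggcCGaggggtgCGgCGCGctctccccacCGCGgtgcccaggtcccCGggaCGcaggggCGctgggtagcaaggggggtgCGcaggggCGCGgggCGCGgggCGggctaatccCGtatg
TAF12 (chr1:28974804-28974953, minus strand): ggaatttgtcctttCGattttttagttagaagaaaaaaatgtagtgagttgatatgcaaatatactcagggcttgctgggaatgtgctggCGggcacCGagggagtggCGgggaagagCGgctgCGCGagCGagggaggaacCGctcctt
PCYT1A (chr3:196014829-196014978, minus strand): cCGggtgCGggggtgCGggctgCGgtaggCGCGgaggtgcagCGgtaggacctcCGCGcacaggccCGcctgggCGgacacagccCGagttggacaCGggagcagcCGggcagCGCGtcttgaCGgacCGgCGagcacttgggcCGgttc
CALML6 (chr1:1846397-1846546, plus strand): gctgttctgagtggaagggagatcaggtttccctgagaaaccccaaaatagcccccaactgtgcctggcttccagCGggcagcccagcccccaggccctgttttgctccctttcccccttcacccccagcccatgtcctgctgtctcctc
Centre of the longest domain (chr7:73888990-73889139): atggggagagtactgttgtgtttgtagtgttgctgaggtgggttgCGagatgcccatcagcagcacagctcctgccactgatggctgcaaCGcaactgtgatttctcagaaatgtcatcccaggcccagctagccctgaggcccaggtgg
Centre of the longest domain without a gene (chr12:38123392-38123541): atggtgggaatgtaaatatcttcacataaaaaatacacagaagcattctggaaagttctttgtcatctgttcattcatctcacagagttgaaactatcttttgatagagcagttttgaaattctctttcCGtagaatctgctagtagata

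The promoters of GTF2IRD1 and PCYT1A held 20 CG each in 150 bases, with a GC content of 80.7% and 75.3%, and that of TAF12 held 9 at 51.3%. The promoter of CALML6 held 1 CG at a GC content of 61.3%. The centre of the longest domain had a GC content of 56.0% with 2 CG, and the centre of the gene-free domain on chromosome 12 had 33.3% with 1. Searched as the letters CG, which read the same on both strands, at least 1 match was present in 93.1% of the 150-base windows upstream of all 20098 protein-coding TSS and in 76.3% of windows of the same length tiling the domains. The median number was 11 upstream of a TSS inside a domain, 9 upstream of a TSS outside the domains and 2 in the tiling windows.

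Long xChIP H1.2 domains had a median length of 32993 bp, with quartiles of 24774.5 and 52943 bp and a longest domain of 475723 bp. Of the domains, 2450 measured 20 to 30 kb, 1766 measured 30 to 50 kb, 1143 measured 50 to 100 kb and 444 measured 100 kb or more. The shortest members were close to their neighbours below the threshold. Just inside lay chr11:118898051-118918050 (20000 bp, with the TSS of SLC37A4), chr22:38824868-38844871 (20004 bp) and chr20:52062751-52082754 (20004 bp), and just outside lay chr6:11451382-11471380 (19999 bp), chr12:89820427-89840421 (19995 bp) and chr12:52217700-52237694 (19995 bp). GC content was 50.4%, 54.8% and 43.0% in the former and 40.8%, 40.7% and 52.9% in the latter.

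The domains were richer in GC than their chromosomes. Their bases had a GC content of 45.4%, against 41.3% (range 41.1% to 41.5%) when domains of the same lengths were placed at random within the same chromosome, outside assembly gaps and without overlap, 1000 times. In this permutation of positions, the difference of 4.15 percentage points had a two-sided empirical p of 0.002, the smallest that 1000 placements can give, and an adjusted p of 0.002 (Benjamini-Hochberg over 7 results). It was above 0 on 23 of 23 chromosomes, from 1.43 points on chromosome 22 to 6.02 on chromosome 7. Single domains ranged from 34.2% to 67.6%, with a median of 44.2% and quartiles of 41.2% and 48.2%. CpG density was 15.7 per kb, against 10.2 per kb (10.0 to 10.5) in the placements. The remaining 136842 xChIP H1.2 regions, all shorter than 20 kb, had a GC content of 43.4%, below that of the domains on 23 of 23 chromosomes.

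**Figure D1:**
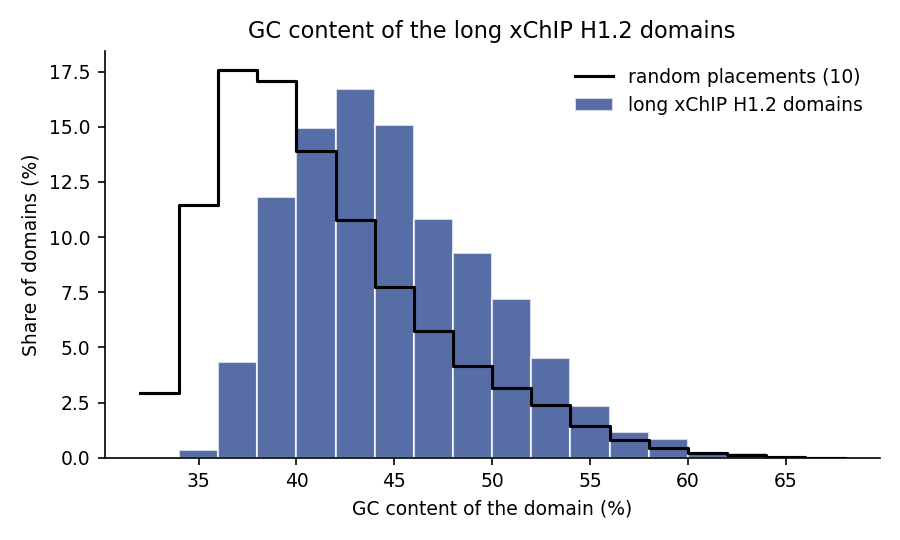
GC content of the 5803 long xChIP H1.2 domains (bars, share of domains in % by GC class of 2 percentage points) and of 10 random placements of the same lengths (line; its lowest class also holds placements below 32%). The domains peak at 42 to 44% and the placements at 36 to 38%.

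Protein-coding genes started inside the domains more often than placement gave. Of 20098 protein-coding TSS, 4339 lay in a long xChIP H1.2 domain, and this 21.6% is the background for the gene lists below. Placements held 2120 (1947 to 2283), so the observed/expected ratio was 2.05 (permutation p = 0.002, adjusted p = 0.002). The density was 16.1 TSS per Mb in the domains, 6.32 in the shorter xChIP H1.2 regions and 7.09 over chromosomes 1 to 22 and X. The ratio was above 1 on 23 of 23 chromosomes, between 1.02 on chromosome X and 2.87 on chromosome 18. Exons took up 5.34% of the domains against 4.16% expected (ratio 1.28), and gene bodies took up 52.4% against 47.6% (ratio 1.10), with the same permutation p and adjusted p. These ratios were below 1 on 3 chromosomes each, with the lowest on chromosome X, at 0.515 for exons and 0.647 for gene bodies.

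The values for genes were smaller when placement was also matched on base composition. When 5715 domains were placed at positions matched in length and, within 1 percentage point, in GC content, the TSS ratio was 1.31 (4220 observed, 3211 expected, permutation p = 0.002). The exon ratio turned to 0.891 (5.23% against 5.87%, permutation p = 0.002), and the gene body ratio was 0.989 (52.2% against 52.8%, p = 0.378). The other 88 domains had too few positions of like GC content and were left out of this placement.

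**Figure D2:**
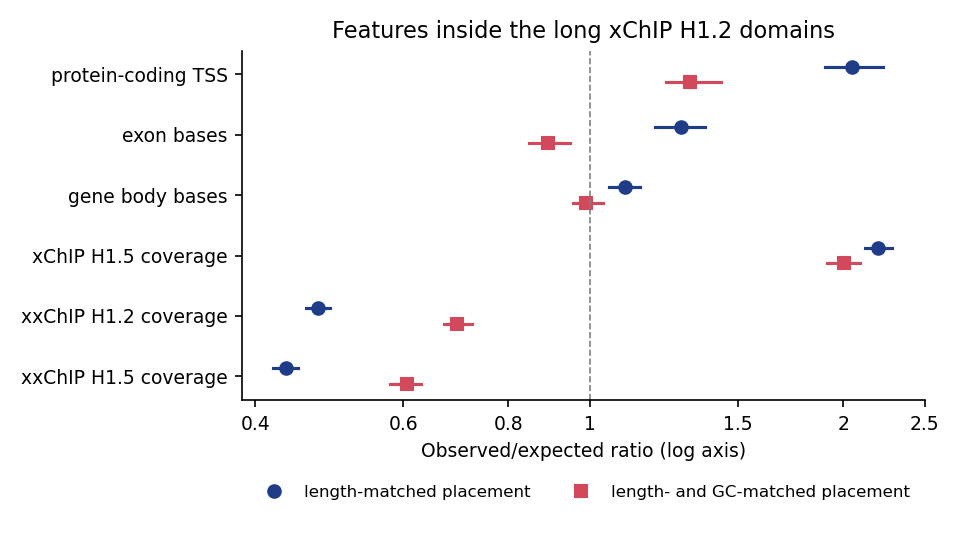
Observed/expected ratio (log axis) of protein-coding TSS, exon bases, gene body bases and coverage by the other lists in the long xChIP H1.2 domains. Points divide by the mean of 1000 placements and lines span the ratios to the highest and lowest placement. With GC matching (squares) the TSS ratio goes from 2.05 to 1.31 and the exon ratio from 1.28 to 0.891. The coverage ratio goes from 2.20 to 2.01 for xChIP H1.5, from 0.475 to 0.695 for xxChIP H1.2 and from 0.435 to 0.606 for xxChIP H1.5.

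Domains differed widely in gene content. No protein-coding TSS lay in 3502 domains (60.3%), 1 TSS lay in 1261, and 2 or more lay in 1040, 121 of which held at least 5. Of all domains, 1701 (29.3%) overlapped no protein-coding gene at all. These counts were not computed for the placements, so they do not tell whether regions of these lengths are poor or rich in genes. Gene-free domains had a median length of 28009 bp and a GC content of 42.9%, and domains with 2 or more TSS had a median of 63131 bp and 47.7%. Longer domains were also denser in genes, with 11.5 TSS per Mb at 20 to 30 kb and 18.7 at 100 kb or more. The share without a gene went from 39.7% to 6.76% between these length classes, although a longer region also has more room for a gene. Of the protein-coding genes, 1846 (9.18%) lay wholly inside a domain, a count not computed for the placements. The median gene length was 24795 bp for genes with a TSS inside and 28096 bp for the others.

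Other classes of transcript were spread unevenly. TSS lay in a domain for 11.4% of 18592 lncRNA genes, 11.9% of 3029 miRNA genes, 14.9% of 9949 processed pseudogenes, 22.6% of 1897 snRNA genes, 21.2% of 1455 snoRNA genes and 27.6% of 2025 miscellaneous RNA genes. These shares stand beside 21.6% of protein-coding TSS and the 9.53% of the known sequence that the domains occupied. Placement values were not computed for single classes, so no class can be called high or low. For all annotated genes together the ratio to placement was 1.60 (permutation p = 0.002). Copies of small RNA genes and pseudogenes resemble each other, and only uniquely mappable reads entered the lists.

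The longest domain, chr7:73651204-74126926, measured 475723 bp and lay in the region of chromosome 7 that is deleted in Williams syndrome. It held the TSS of RFC2 (a subunit of the replication factor C clamp loader), CLIP2 (a microtubule-binding linker protein), GTF2IRD1 and GTF2I (transcription factors of the TFII-I family). CLIP2 and GTF2IRD1 lay in it over 100% of their length, RFC2 over 76.6% and GTF2I over 56.5%. Its GC content was 50.6%. xChIP H1.5 covered 73.2% of it, xxChIP H1.2 1.77% and xxChIP H1.5 1.01%.

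The next domain, chr1:28767776-29136011 (368236 bp, GC 46.6%), held the TSS of 6 genes, RCC1 (the nucleotide exchange factor for Ran on chromatin), TRNAU1AP, RAB42, TAF12 (a TFIID subunit), GMEB1 and YTHDF2 (a reader of m6A in mRNA). All 6 lay in it over their whole length. xChIP H1.5 covered 38.7% of it and the xxChIP lists 4.13% (H1.2) and 1.90% (H1.5).

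Next in length came chr12:37943654-38303280 (359627 bp), which stood apart from the other 9 of the 10 longest. It overlapped no protein-coding gene, had a GC content of 37.7% and lay 86959 bp from an assembly gap of at least 1 Mb. xChIP H1.5 covered 80.0% of it, xxChIP H1.2 77.5% and xxChIP H1.5 66.7%. In the other 9, the GC content was between 41.1% and 50.6%, coverage by xxChIP H1.2 between 1.77% and 9.79%, and coverage by xxChIP H1.5 between 1.01% and 6.21%.

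Chromosome 3 held 3 of the 10 longest domains. chr3:195779356-196115136 (335781 bp) held 8 TSS, with TFRC (the transferrin receptor) and PCYT1A (a key enzyme of phosphatidylcholine synthesis). chr3:9987627-10318639 (331013 bp) held 10, with FANCD2 (DNA interstrand crosslink repair), VHL (the substrate receptor of a ubiquitin ligase for hypoxia-inducible factors), BRK1 (WAVE complex) and IRAK2 (a kinase of interleukin-1 receptor signalling). chr3:48713149-49016427 (303279 bp) held 5, with PRKAR2A (a regulatory subunit of protein kinase A), SLC25A20 (the mitochondrial carnitine carrier) and ARIH2 (a ubiquitin ligase). xChIP H1.5 covered 56.1%, 63.2% and 40.8% of these domains.

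The remaining 4 were chr12:123999073-124309919, chr7:75133395-75442451, chr15:44509770-44816031 and chr13:95890092-96184114. They held, in this order, 8 TSS, with those of DDX55, EIF2B1 and GTF2H3 (a TFIIH subunit), 2 TSS (HIP1, a clathrin adaptor, and CCL26, an eosinophil chemokine), 2 TSS (GOLM2 and CTDSPL2) and 2 TSS (ABCC4, an efflux pump, and CLDN10, a claudin). GOLM2 and HIP1 lay in their domain over their whole length, and ABCC4 over 22.6%.

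The most gene-dense domain by count was chr11:62345272-62566590, 221319 bp with 25 TSS and exons over 30.1% of its bases. Its genes include MTA2 (of the NuRD complex), GANAB (glucosidase II), INTS5 (of the Integrator complex), BSCL2 (seipin) and POLR2G (an RNA polymerase II subunit), and xxChIP H1.5 covered none of its bases and xxChIP H1.2 1.61%. chr7:99566789-99785618 held 15 TSS, among them MCM7 (a subunit of the replicative helicase), TAF6 and COPS6. chr7:102116081-102331565 held 13, among near-identical copies of POLR2J, RASA4, SPDYE2 and UPK3BL1, so reads there are hard to place and the domain is uncertain; xChIP H1.5 covered 93.9% of it. chr2:27495459-27656063 held 11, with MPV17, EIF2B4, PPM1G and SNX17. The VHL domain described above came next by this count, with 10.

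xChIP H1.5 covered the domains more densely than placement gave, and both xxChIP lists covered them less densely. xChIP H1.5 covered 37.7% of the domain bases, against 17.1% (16.5% to 17.8%) in the placements, a ratio of 2.20. xxChIP H1.2 covered 9.74% against 20.5% (19.8% to 21.2%), a ratio of 0.475. xxChIP H1.5 covered 7.73% against 17.8% (17.2% to 18.4%), a ratio of 0.435. Each had a permutation p of 0.002 and an adjusted p of 0.002. With GC matching the ratios were 2.01, 0.695 and 0.606, each with a permutation p of 0.002. The ratio for xChIP H1.5 was above 1 on 23 of 23 chromosomes (1.51 on chromosome 16 to 2.84 on X), and those for xxChIP H1.2 (0.326 on chromosome 19 to 0.733 on 21) and xxChIP H1.5 (0.319 on 17 to 0.614 on 21) were below 1 on all 23.

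The shorter regions of the same list differed from the domains in the xxChIP lists. Coverage of the shorter xChIP H1.2 regions was 31.7% by xChIP H1.5, 20.6% by xxChIP H1.2 and 19.4% by the xxChIP H1.5 list. Both xxChIP values were higher in the shorter regions than in the domains on 23 of 23 chromosomes, and xChIP H1.5 was higher in the domains on 20 of 23. Among the domains, coverage by xxChIP H1.5 went from 10.0% at 20 to 30 kb to 5.92% at 100 kb or more. Coverage by xxChIP H1.2 was 10.7% and 8.80% in these classes, and coverage by xChIP H1.5 was 38.1% and 41.4%.

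Single domains varied around these means. The median domain was covered over 33.0% by xChIP H1.5, 6.57% by xxChIP H1.2 and 5.08% by the xxChIP H1.5 list. At least 1 bp of an xChIP H1.5 region lay in 96.6% of domains (87.6% in the placements), of an xxChIP H1.2 region in 78.5% (88.6%) and of an xxChIP H1.5 region in 74.0% (86.4%). No xxChIP region of either isotype touched 592 domains (10.2%). This count, and the overlaps between long domains that follow, were not computed for the placements, so they cannot be called few or many. Of the domains, 927 (16.0%) overlapped a long xChIP H1.5 domain, 87 a long xxChIP H1.2 domain and 76 a long xxChIP H1.5 domain, all long domains being at least 20 kb. Seen from the other lists, 69.1% of the 1403 long xChIP H1.5 domains, 2.95% of the 2920 long xxChIP H1.2 domains and 4.39% of the 1618 long xxChIP H1.5 domains overlapped a long xChIP H1.2 domain.

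Coverage by the other lists was highest in the GC-poor domains, which held few genes. In the 272 domains with a GC content below 38%, there were 0.510 TSS per Mb. Over all their bases together, coverage was 64.6% by xChIP H1.5, 42.5% by xxChIP H1.2 and 35.4% by the xxChIP H1.5 list. The 42.5% is not typical of a single domain, as the upper quartile of xxChIP H1.2 coverage in this class was 36.6%. In the 1554 domains of 38 to 42% GC, coverage in the same order was 46.5%, 13.1% and 11.8%, with 4.89 TSS per Mb. In the 966 domains of 50% GC or more, there were 31.4 TSS per Mb, and coverage was 30.7%, 4.64% and 4.45%. By gene content, xxChIP H1.2 covered 17.2% of the gene-free domains and 5.64% of those with 2 or more TSS. Domains of a class share chromosomes and neighbours, so these differences are given without a test.

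A small set of domains, mostly poor in GC, lay largely under the xxChIP lists as well. In 188 domains at least 50% of the bases lay under an xxChIP region of either isotype, a count not computed for the placements. These domains had a median GC content of 39.1%, and 132 overlapped no protein-coding gene. Of these 188, 82 (43.6%) lay within 5 Mb of an assembly gap of at least 1 Mb, against 552 (9.51%) of all domains. The 5 longest domains with the whole length under the xxChIP lists were chr7:62299640-62443615, chr11:54838487-54961750, chr7:57938816-58054279, chr16:35179629-35285660 and chr19:27835558-27933076. All 5 overlapped no protein-coding gene, had a GC content between 36.3% and 37.3%, and were covered by xChIP H1.5 over 89.3%, 46.8%, 100%, 59.9% and 81.9%. Sequence beside large gaps is often repetitive. The part of read mapping was not tested in these 5 domains, nor in chr12:37943654-38303280, the longest domain without a gene.

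TSS inside the domains were covered by the other lists at lower rates than the domains around them, a difference that was not tested. Of the 4339 TSS, 905 (20.9%) lay in an xChIP H1.5 region, 41 (0.945%) in an xxChIP H1.2 region and 44 (1.01%) in an xxChIP H1.5 region. The domains holding these TSS were covered over 33.3%, 6.31% and 4.51% on average, each domain counted once per TSS. Of the 15759 protein-coding TSS outside the domains, 7.23% lay in an xChIP H1.5 region, 4.41% in an xxChIP H1.2 region and 4.35% in an xxChIP H1.5 region.

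The edges of the domains had a pattern of their own. In the 2000 bp outside the edges there were 589 protein-coding TSS (25.4 per Mb), against 184 (152 to 213) around 100 placements, and in the 2000 bp inside there were 296 (12.8 per Mb), against 186 (164 to 222). Of the 589 TSS outside, 416 belonged to genes directed away from the domain and 173 to genes directed into it. Placements gave 92.3 (76 to 119) and 92.0 (65 to 112). Between 5000 and 10000 bp outside, the numbers directed away and into the domain were 463 and 502. Inside the domains, genes directed toward that edge were also the more numerous, with 194 against 102 in the first 2000 bp and 488 against 346 between 5000 and 10000 bp. Direction is the strand of the gene alone, and whether a gene reaches the edge was not checked. Outside, a TSS near several edges counts at each of them and may lie in another domain.

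Coverage by the 3 other lists dipped just outside the edge. In steps of 500 bp, the step centred 750 bp outside was covered over 15.0% by xChIP H1.5, 5.85% by xxChIP H1.2 and 4.57% by the xxChIP H1.5 list, against 22.6%, 12.7% and 9.90% in the step centred 19750 bp outside. In the step 750 bp inside, coverage was 31.3%, 14.8% and 13.3%. Deeper inside, at a distance of 9250 bp, it was 37.3%, 9.26% and 7.72%. GC content was 43.3% in the last 500 bp outside and 47.2% in the first 500 bp inside. Outside an edge the sequence can belong to a neighbouring domain, and these profiles were not tested. An edge is where an xChIP H1.2 region ends, so xChIP H1.2 itself covered 3.52% of the step 750 bp outside. In the step 19750 bp outside it covered 53.1%, and the dip of the other lists was not separated from this.

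**Figure D3:**
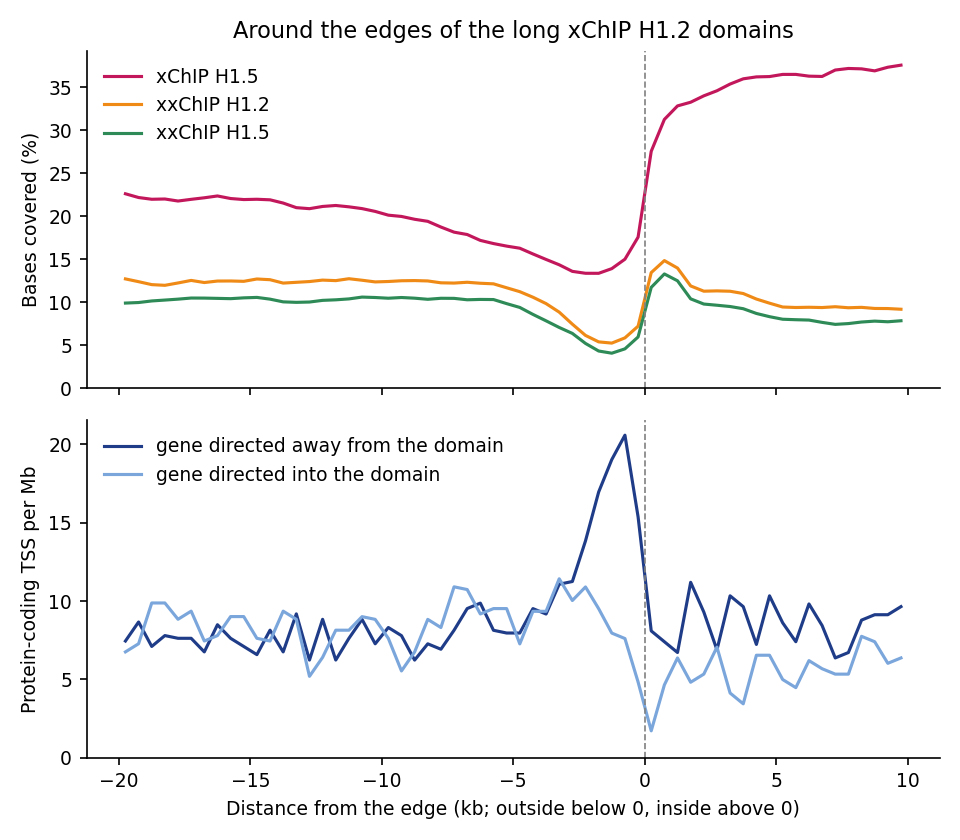
Coverage by the 3 other lists (upper panel, % of bases) and protein-coding TSS per Mb by direction of the gene (lower panel) against distance from the domain edge in kb, in steps of 500 bp, with both edges of the 5803 domains joined (outside below 0). Genes directed away from the domain peak at 20.6 TSS per Mb 750 bp outside, where xxChIP H1.2 covers 5.85% of the bases.

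Long xChIP H1.2 domains were clustered along the chromosomes. A neighbouring domain lay within 50 kb for 60.5% of them, against 22.0% (20.0% to 24.1%) in the placements, a ratio of 2.75 given as a description. The ratio was above 1 on 23 of 23 chromosomes, from 1.85 on chromosome 19 to 5.05 on chromosome X. Joined over gaps of up to 50 kb, the domains formed 3366 runs (5061 to 5179 in 100 placements), of which 2291 were single domains and 184 had at least 5. Of 2846 windows of 1 Mb, 37.8% held no domain base (11.6% to 14.2%), and the densest 10% of the windows held 48.7% of all domain bases (27.9% to 29.5%). Clustering was not particular to this list. Long domains of the other lists also had a neighbour of their own list within 50 kb more often than in 100 placements. The shares were 18.2% against 6.50% for xChIP H1.5, 27.9% against 11.3% for xxChIP H1.2 and 18.6% against 6.77% for xxChIP H1.5.

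The gaps between neighbouring domains were themselves gene-rich where they were short. The median gap was 76182 bp. The 1155 gaps of up to 10 kb held 191 protein-coding TSS, 34.2 per Mb, a density above the 16.1 per Mb of the domains. The density was 24.1 per Mb in gaps of 10 to 50 kb, 18.5 in gaps of 50 to 100 kb and 5.55 in gaps over 100 kb. xChIP H1.5 covered 13.6% of the shortest gaps and xxChIP H1.2 4.98%, both below their coverage of the domains.

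The longest run, chr7:72107586-74715555, spanned 2608 kb (476 to 783 kb for the longest run of a placement) and joined 19 domains that took up 92.6% of it. Of the 38 protein-coding TSS in the run, 37 lay inside a domain. The exception was the TSS of ELN, which encodes elastin, 2750 bp from the nearest domain. The body of ELN ran into chr7:73463098-73604843, the domain with the TSS of LIMK1. The run holds BAZ1B (a chromatin remodelling subunit), STX1A (a synaptic vesicle fusion protein), CLDN3 and CLDN4 (claudins), LIMK1 (an actin-regulating kinase), EIF4H, LAT2, the genes of the longest domain and NCF1 (a cytosolic subunit of the phagocyte NADPH oxidase). Its GC content was 48.9%, and coverage was 55.6% by xChIP H1.5, 3.59% by xxChIP H1.2 and 2.27% by the xxChIP H1.5 list. Near-identical copies of NCF1, GTF2IRD2 and SPDYE genes flank this region, and values there are uncertain.

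The next longest runs were also on chromosome 7. chr7:100606586-101890998 (1284 kb, 11 domains) held 13 of its 16 TSS inside a domain, with genes such as PLOD3 (a lysyl hydroxylase), MUC17 and CUX1. chr7:4479878-5688979 (1209 kb, 15 domains) held 11 of 13, with genes such as ACTB (beta-actin), FSCN1 (fascin), FOXK1 and TNRC18. xChIP H1.5 covered 45.2% and 31.5% of these runs and xxChIP H1.2 8.06% and 3.83%.

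Chromosomes differed in how much of them the domains occupied. The share of known sequence was highest on chromosome 19 (18.3%, 236 domains), followed by chromosomes 20 (15.2%), 12 (14.5%), 7 (14.3%) and 22 (13.6%). It was lowest on chromosome X (2.06%, 91 domains), followed by chromosomes 18 (4.53%) and 10 (5.38%). Across the 23 chromosomes, the share went with the number of protein-coding genes per Mb, with Pearson's r = 0.625 and Spearman's rho = 0.635. Pearson's r was 0.534 without chromosomes 19 and 17, the most gene-dense. These coefficients describe 1 list, whose chromosomes share libraries and differ in length and base composition.

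**Figure D4:**
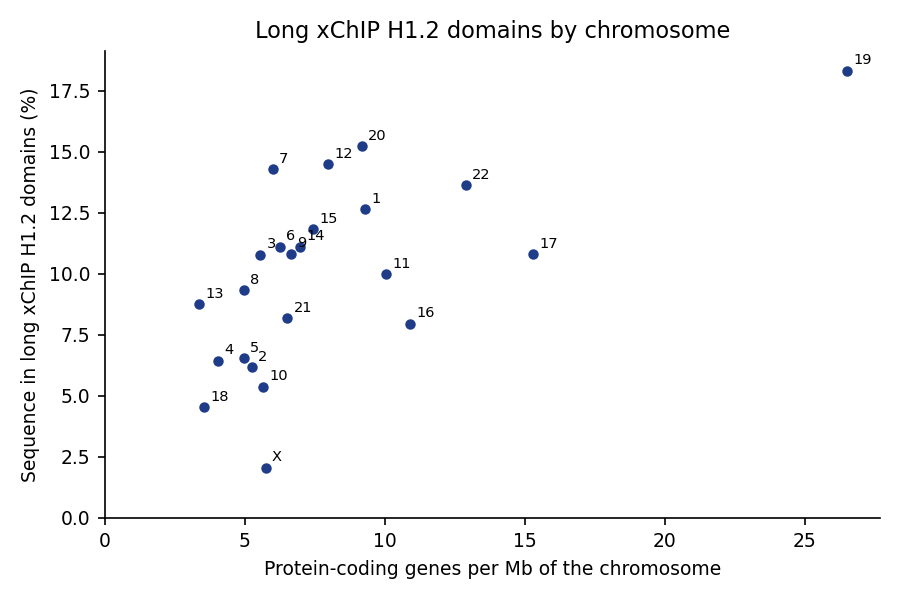
Share of known sequence in long xChIP H1.2 domains (%) against protein-coding genes per Mb, with 1 point per chromosome. Chromosome 19 is highest on both axes (18.3%), chromosome X is lowest in share (2.06%), and chromosome 7 (14.3%) lies above chromosomes 2 (6.17%) and 5 (6.56%) of similar gene density.

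Gene lists differed in the share of members with a TSS in a domain, to be read against 21.6% of all protein-coding genes. The lists had been chosen with earlier results known, and genes of a list can share a domain, so these shares are descriptions. In the lists below, a gene is placed in a domain, or at a distance from one, by its TSS alone. Of 83 genes named RPL or RPS, almost all encoding proteins of the cytosolic ribosome, 36 (43.4%) lay in a domain, and the longest of these domains held RPL7L1, RPS27, RPS3A and RPL6. Of 46 subunits of RNA polymerase II and Mediator, 19 (41.3%) lay in a domain, 4 of them the POLR2J, POLR2J2 and POLR2J3 entries of 1 duplicated segment on chromosome 7, with POLR2G and MED18 elsewhere. Of 78 mitochondrial ribosomal protein genes, 26 (33.3%) lay in a domain, with MRPS36, MRPL48 and MRPL41 in the longest. Of 39 proteasome subunits, 10 (25.6%) did, a share near the background, with PSMA6, PSMD4 and PSMD9 in the longest.

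Genes of the nuclear envelope and linker histones were short lists. Of 13 lamin and nuclear envelope genes, 7 (53.8%) lay in a domain. LMNB1 (lamin B1) lay in a domain of 269654 bp on chromosome 5, covered over 25.6% by xChIP H1.5 and 4.17% by xxChIP H1.2, and SYNE2 (nesprin-2), TMPO, SUN1, BANF1, LMNB2 and SUN2 lay in shorter ones. LMNA (lamins A and C) was 10950 bp from a domain and LBR (the lamin B receptor) 201440 bp. Among the linker histone genes, H1-5 and H1-8 lay in a domain. H1-2, which encodes H1.2 itself, was 501617 bp from the nearest one. H1-5 shared its domain of 39373 bp on chromosome 6 with all 6 of the core histone genes inside a domain, among 45 in the histone cluster there.

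The 5 lists of myeloid and leukocyte genes had shares between 11.1% and 33.3%. Of 12 azurophil granule protein genes, 4 (33.3%) lay in a domain, and all 4 are on chromosome 19. AZU1 (azurocidin), PRTN3 (proteinase 3) and ELANE (neutrophil elastase) shared a domain of 57953 bp with a GC content of 58.7%, covered over 22.3% by xChIP H1.5, 0% by the xxChIP H1.2 list and 1.88% by the xxChIP H1.5 list. PRSS57 lay in a neighbouring domain of 114191 bp, and MPO (myeloperoxidase), CTSG, LYZ and BPI were more than 100 kb from any domain. Of 14 myeloid transcription factors, KLF4, CEBPB and SPI1 (PU.1) lay in a domain (21.4%), and CEBPA was 275230 bp away. RUNX1 is annotated over chr21:36160098-37376965, and the 5′ end of this whole span was 4004 bp from a domain. Other start sites of RUNX1 were not examined. Among 8 leukocyte integrins, ITGAL and ITGAM lay in a domain and ITGB2, their shared beta subunit, was 496673 bp away. Among 6 NADPH oxidase genes, NCF1 did, and among 9 interferon regulatory factors, IRF7 did.

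Gene families in large tandem clusters were at the lower end. None of 39 HOX genes, which pattern the body axis, and none of 53 clustered protocadherin genes, which encode neuronal adhesion proteins, had a TSS in a domain. Of 414 olfactory receptor genes, 2 (0.483%) did, OR2AP1 and OR5BS1P, both on chromosome 12. Of 149 keratin and keratin-associated protein genes, 6 (4.03%) did, with KRT8 and KRT18 in the same domain of 132330 bp on chromosome 12. Of 323 protein-coding genes longer than 500 kb, 12 (3.72%) did, with EGLN3, LRBA and ULK4 in the longest domains. Length and TSS are those of the whole annotated span of a gene, and other start sites were not examined. ZNF-named zinc finger genes were at 16.9% (87 of 515) and solute carriers at 23.9% (89 of 373), on either side of the background.

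**Figure D5:**
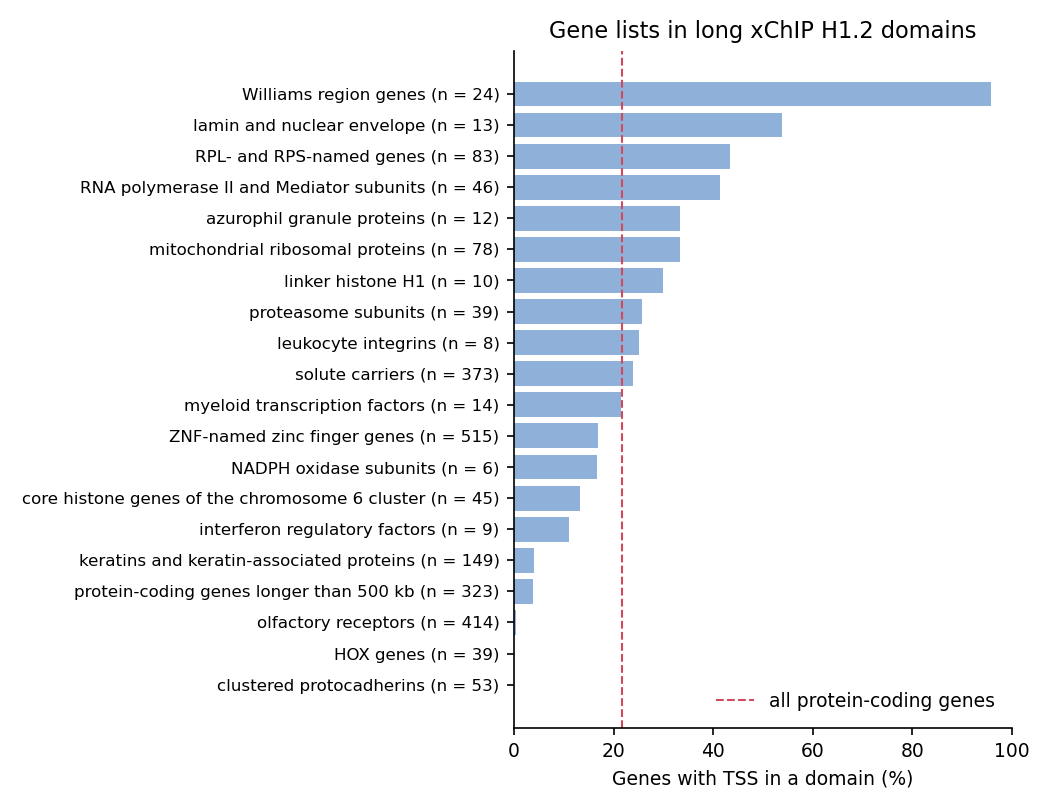
Share of the genes of 20 lists whose TSS lay in a long xChIP H1.2 domain (%), with the number of genes in brackets and the 21.6% of all protein-coding genes as a dashed line. Of the 24 Williams region genes, which adjoin each other, 23 (95.8%) lay in a domain, and the HOX and protocadherin lists had none.

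Long domains of the other lists had other compositions. GC content was 42.6% in the long xChIP H1.5 domains, and 37.3% (H1.2) and 37.8% (H1.5) in the long xxChIP domains, below that of the long xChIP H1.2 domains on 23 of 23 chromosomes for each list. These lists held 8.45, 1.52 and 1.76 TSS per Mb. Against length-matched placement, the TSS ratio of the long xChIP H1.5 domains was 1.24, and those of the long xxChIP domains were 0.215 (H1.2) and 0.230 (H1.5). The density was higher in the long xChIP H1.2 domains on 22 of 23 chromosomes against xChIP H1.5 and on 23 of 23 against each xxChIP list. The differences between lists were not tested.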

How the data were processed

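Undifferentiated HL-60/S4 cells were immunoprecipitated for H1.2 or H1.5 by xChIP or xxChIP, with 3 samples per combination. Per the methods, the authors mapped read pairs against hg19 (Bowtie2, at most 2 mismatches, unique hits), ran MUSIC with default settings to find enriched regions and pooled the regions of the 3 replicates by merging. Versions of Bowtie2 and MUSIC are not given in the sources used here. The deposited lists hold chromosome, start and end only, with no score, so depth is unknown and no read-based interval is given. Groups follow the labelled protocol and antibody.

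Regions of at least 20000 bp were kept. GC content, exons, gene bodies and TSS (the 5′ end of each gene) came from GRCh37 and GENCODE v44 lifted to it. Domains were placed 1000 times within their chromosome, outside assembly gaps of at least 50 bp and without overlap (100 times for runs, edges and the long domains of other lists). Empirical p-values are two-sided with Benjamini-Hochberg adjustment over 7 results and measure placement along 1 merged list, not variation between samples. Clustering got no test. The placement step was tested on simulated data.

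Genes named are those with a TSS in the 10 longest domains, the 5 with most TSS, the 5 most covered by xxChIP, those beside the threshold and the 3 longest runs (up to 6 per domain, examples for the runs), and members of 20 gene lists; some genes are not reported here. For 5 domains by xxChIP coverage, ties at full coverage were ordered by length. The domains and lists were chosen with earlier results of these data known. Python 3.11.15, numpy 2.4.6, pandas 2.3.3, numba 0.67.0 and matplotlib 3.10.9 were used.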

Additional observations from a re-analysis of the deposited data

How the results depend on the processing

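The alternatives were circular shifts that keep the spacing of the domains, placement that may fall in gaps or overlap itself, GC-matched placement, minimum lengths of 10000 and 50000 bp, joining over 1000 bp, counting each domain once, leaving out chromosome 19, and other TSS and overlap rules. The GC difference (3.64 to 4.81 points), the TSS ratio (1.31 to 2.34) and the coverage ratios for xChIP H1.5 (1.10 to 2.25), xxChIP H1.2 (0.451 to 0.886) and xxChIP H1.5 (0.361 to 0.856) kept their direction and a permutation p of 0.002 under each one run for them. Matched on GC content, the exon ratio turned to 0.891 and the gene body ratio to 0.989 (permutation p = 0.378), and the cause was not tested. The ratio for a neighbour within 50 kb, 2.75, was 1.85 with gaps and overlap allowed, 1.48 at 10000 bp or more, 6.19 at 50000 bp or more and 2.82 without chromosome 19; it was 7.04 for a neighbour within 10 kb and 1.85 within 100 kb. The number and density of domains differ by construction between the length settings. No paired analysis was possible because each list merges its 3 replicates, and for the same reason no replicate could be left out. Without scores or reads, the support behind a single domain is unknown.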
